A study of Mus musculus with 8 samples.

Results

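The Rab genes encode small GTPases of vesicle traffic. Chromatin accessibility at these genes was compared between type 1 conventional dendritic cells (cDC1s, the subset specialised in cross-presenting antigen) sorted from B16-OVA melanomas 21 days after inoculation and the same cell type sorted 7 days after inoculation. B16-OVA is a mouse melanoma line that carries the model antigen ovalbumin. All mice were labelled wild type, no treatment other than the tumour was labelled, and each time point had 4 ATAC-seq libraries. The labels do not say whether each library came from its own animal or from pooled animals, and every p-value here reflects only how these 8 libraries scatter, which may be technical. The members were all protein-coding genes named Rab with a number and an optional letter, which gave 59 of 21887 protein-coding genes. Proteins that bind, activate or inactivate Rabs were not members.

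A Rab protein is switched on by an exchange factor that loads GTP and switched off by a GTPase-activating protein. Prenyl groups anchor it in a membrane, and GDP dissociation inhibitors return it to the cytosol. Bound to GTP it recruits effectors such as tethers, motors and lipid enzymes, and each membrane compartment carries its own set of Rabs. In dendritic cells Rabs control how phagosomes mature, how MHC class I molecules reach them, and how antigen is cross-presented.

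Counts per region were summed over regions that overlapped, in any part, a window of 1 kb on each side of either annotated end of a gene. This is called the gene-end sum here. Regions outside all such windows were summed for their nearest gene end within 50 kb, called the distal sum. Both are given as CPM, counts scaled to a common library total. Of the 59 Rab genes, 54 had a region at an end and 53 were tested there, since Rab44 was too low. Rab3d, Rab9b, Rab17, Rab21 and Rab25 had no region at an end. For the distal sum 48 were tested, and the others were Rab1b, Rab2b, Rab3d, Rab4b, Rab5b, Rab9b, Rab24, Rab34, Rab36, Rab39b and Rab42. Rab3d and Rab9b had no region of either kind. In 11 genes an end region was shared with another gene, Rab1b, Rab2b, Rab4b, Rab5b, Rab5c, Rab6a, Rab13, Rab24, Rab26, Rab33a and Rab37, and such a region cannot be assigned to either gene.

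Totals over all 128057 regions, tested or not, were 14021151, 16761537, 17345638 and 27737040 counts in day 21 libraries. In day 7 libraries they were 11884889, 9440223, 11966868 and 16063736 counts. The markers of cDC1s were well represented: 14 of 15 had a region at an end, with summed levels of 602 to 644 CPM at day 21 and 582 to 616 CPM at day 7. There 4 of the 14 rose (Wdfy4, Naaa, Gcsam and Itgax) and 1, the transcription factor gene Irf8, fell (-0.51 ± 0.07, edgeR adjusted p = 8.04e-08). In distal sums the cDC1 list had 1280 to 1350 CPM at day 21 and 1140 to 1210 CPM at day 7, and 7 of 13 rose, none fell and all 13 were above 0. Markers of T and NK cells summed to 121 to 139 CPM at day 21 and 134 to 150 CPM at day 7 at gene ends, where 8 of the 16 tested fell and 2 rose, and in distal sums 8 of 19 fell and 1 rose. Of 10 melanoma markers, Tyr, Slc45a2 and Oca2 had no region at an end, and Tyrp1 (mean 0.302 CPM at day 21, 1.32 CPM at day 7) and Sox10 (0.574 CPM at day 21, 1.30 CPM at day 7) were near 0 and fell. Gpnmb also fell and Mitf rose (0.20 ± 0.07, edgeR adjusted p = 0.0210), of 6 tested. The melanoma list summed to 170 to 183 CPM at day 21 and 175 to 188 CPM at day 7, of which most lay in the region that Pmel shares with Rab5b and at Mitf. The macrophage and monocyte list summed to 91.9 to 102 CPM at day 21 and 84.4 to 88.8 CPM at day 7, and 4 of 13 tested rose. Beside all these marker counts, 6.71% of all genes tested rose and 24.6% fell at gene ends. In distal sums 18.3% of all genes tested rose and 11.4% fell, and their median log2 fold change was 0.04. In bulk libraries, fewer cells with an open site and less opening per cell cannot be told apart.

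Promoter sequences of 4 Rab genes whose start region fell, and of Rab43, whose start region did not pass the test, are printed to show what the regions at the starts contain. They are from RefSeq, build GRCm38.p6, 5′ to 3′ on the gene's strand, from 250 bases before to 50 after the start, and capitals mark every match to the motifs searched.
Rab22a promoter (chr2:173659595-173659894, plus strand): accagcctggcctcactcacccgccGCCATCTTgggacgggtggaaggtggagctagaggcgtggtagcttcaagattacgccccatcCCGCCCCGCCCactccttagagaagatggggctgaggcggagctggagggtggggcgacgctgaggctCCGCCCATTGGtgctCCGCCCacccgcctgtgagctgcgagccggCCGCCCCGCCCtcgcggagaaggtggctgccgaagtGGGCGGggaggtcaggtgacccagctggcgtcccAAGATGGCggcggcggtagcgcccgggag
Rab10 promoter (chr12:3309920-3310219, minus strand): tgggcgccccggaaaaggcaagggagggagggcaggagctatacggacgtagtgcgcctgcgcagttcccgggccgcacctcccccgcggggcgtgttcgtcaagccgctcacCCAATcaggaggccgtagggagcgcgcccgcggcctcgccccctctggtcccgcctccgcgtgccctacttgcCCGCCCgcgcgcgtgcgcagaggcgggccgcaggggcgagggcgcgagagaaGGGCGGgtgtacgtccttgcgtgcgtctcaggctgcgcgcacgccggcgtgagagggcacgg
Rab21 promoter (chr10:115315542-115315841, minus strand): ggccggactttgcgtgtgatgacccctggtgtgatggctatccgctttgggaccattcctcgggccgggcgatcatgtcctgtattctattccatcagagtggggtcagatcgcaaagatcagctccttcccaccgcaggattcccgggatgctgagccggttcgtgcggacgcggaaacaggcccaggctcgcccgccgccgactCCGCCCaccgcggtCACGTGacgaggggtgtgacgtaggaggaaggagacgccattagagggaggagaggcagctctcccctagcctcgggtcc
Rab6a promoter (chr7:100607336-100607635, plus strand): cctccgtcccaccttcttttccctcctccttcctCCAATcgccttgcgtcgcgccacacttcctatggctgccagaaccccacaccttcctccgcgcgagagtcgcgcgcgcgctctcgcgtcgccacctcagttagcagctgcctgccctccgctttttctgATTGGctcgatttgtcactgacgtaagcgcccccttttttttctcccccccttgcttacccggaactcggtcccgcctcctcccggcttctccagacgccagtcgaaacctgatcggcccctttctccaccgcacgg
Rab43 promoter (chr6:87811730-87812029, minus strand): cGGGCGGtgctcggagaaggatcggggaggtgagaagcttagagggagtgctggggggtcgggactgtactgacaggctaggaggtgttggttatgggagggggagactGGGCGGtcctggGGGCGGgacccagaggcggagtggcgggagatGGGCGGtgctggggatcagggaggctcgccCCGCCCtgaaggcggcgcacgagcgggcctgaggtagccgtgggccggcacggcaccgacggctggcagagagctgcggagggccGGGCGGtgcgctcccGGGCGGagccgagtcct

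Promoter entries matched 48 of the 59 genes. The motifs were searched on both strands, and no matches of different motifs overlapped in a Rab promoter. The GC box, GGGCGG, was in 70.8% of Rab promoters and in 46.2% of all 21263 protein-coding promoters. The CCAAT box, with those letters, was in 45.8% of Rab promoters and 38.2% of all. The ETS motif CCGGAAG was in 10.4% of Rab promoters and 11.6% of all, and the E-box CACGTG in 10.4% of Rab promoters and 7.84% of all. The YY1 motif AAGATGGC was in 6.25% of Rab promoters and 3.05% of all. The CRE motif TGACGTCA was in 4.17% of Rab promoters and 2.23% of all, and the AP-1 motif TGANTCA in 4.17% of Rab promoters and 6.99% of all. Rab promoters had a median GC content of 63.0%, against 56.3% over all promoters. Rab22a and Rab43 each held 7 GC boxes, and the start region of Rab22a fell while that of Rab43 had a log2 fold change of 0.02.

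Accessibility fell at the ends of 3 early endosome, 4 recycling and 4 endoplasmic reticulum or Golgi Rab genes and of Rab9, to between 0.739 and 0.896 times the day 7 level. Distal accessibility rose at 9 Rab genes, with the smallest p at Rab40b, Rab7b, Rab39 and Rab43, and fell at 5, with the smallest p at Rab22a and Rab20. By fold change, Rab40b (1.10), Rab33b (0.53) and Rab19 (0.44) rose the most on the log2 scale, and Rab4a (-0.75), at low levels, and Rab22a (-0.53) fell the most. At gene ends, 2 Rab genes rose and 12 fell of 53 tested, by edgeR's quasi-likelihood test at an adjusted p under 0.05. These are shares of 3.77% and 22.6%, and over all 13572 genes tested 6.71% rose and 24.6% fell. Among distal sums, 9 rose and 5 fell of 48, or 18.8% and 10.4%, where 18.3% rose and 11.4% fell over all 14486 genes. The median log2 fold change of Rab genes was -0.10 at ends and 0.08 in distal sums, against -0.09 and 0.04 over all genes tested. All 4 shares were thus close to the background, and the Rab genes as a set did not stand apart by these counts. Where the normalisation was allowed to vary with a gene's mean count, 7 Rab genes rose and 6 fell at ends, and 1628 and 1647 of all genes. In distal sums that normalisation gave 7 Rab genes in each direction, and 2164 rising and 2167 falling over all genes. At ends Rab5c, Rab8b, Rab9, Rab14, Rab30 and Rab35 then lost their calls, and Rab2b, Rab7b, Rab11a, Rab31 and Rab32 were called higher. Rab1a, Rab6a and Rab10 were still called lower at ends, with smaller values of -0.12, -0.19 and -0.17. In distal sums Rab10 and Rab31 lost theirs, and Rab2a and Rab21 were called lower. Without day 21 replicate 3 or day 7 replicate 1, 1 Rab gene rose at ends, and without day 21 replicate 2 or 4, 3 fell in distal sums.

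**Figure D1:**
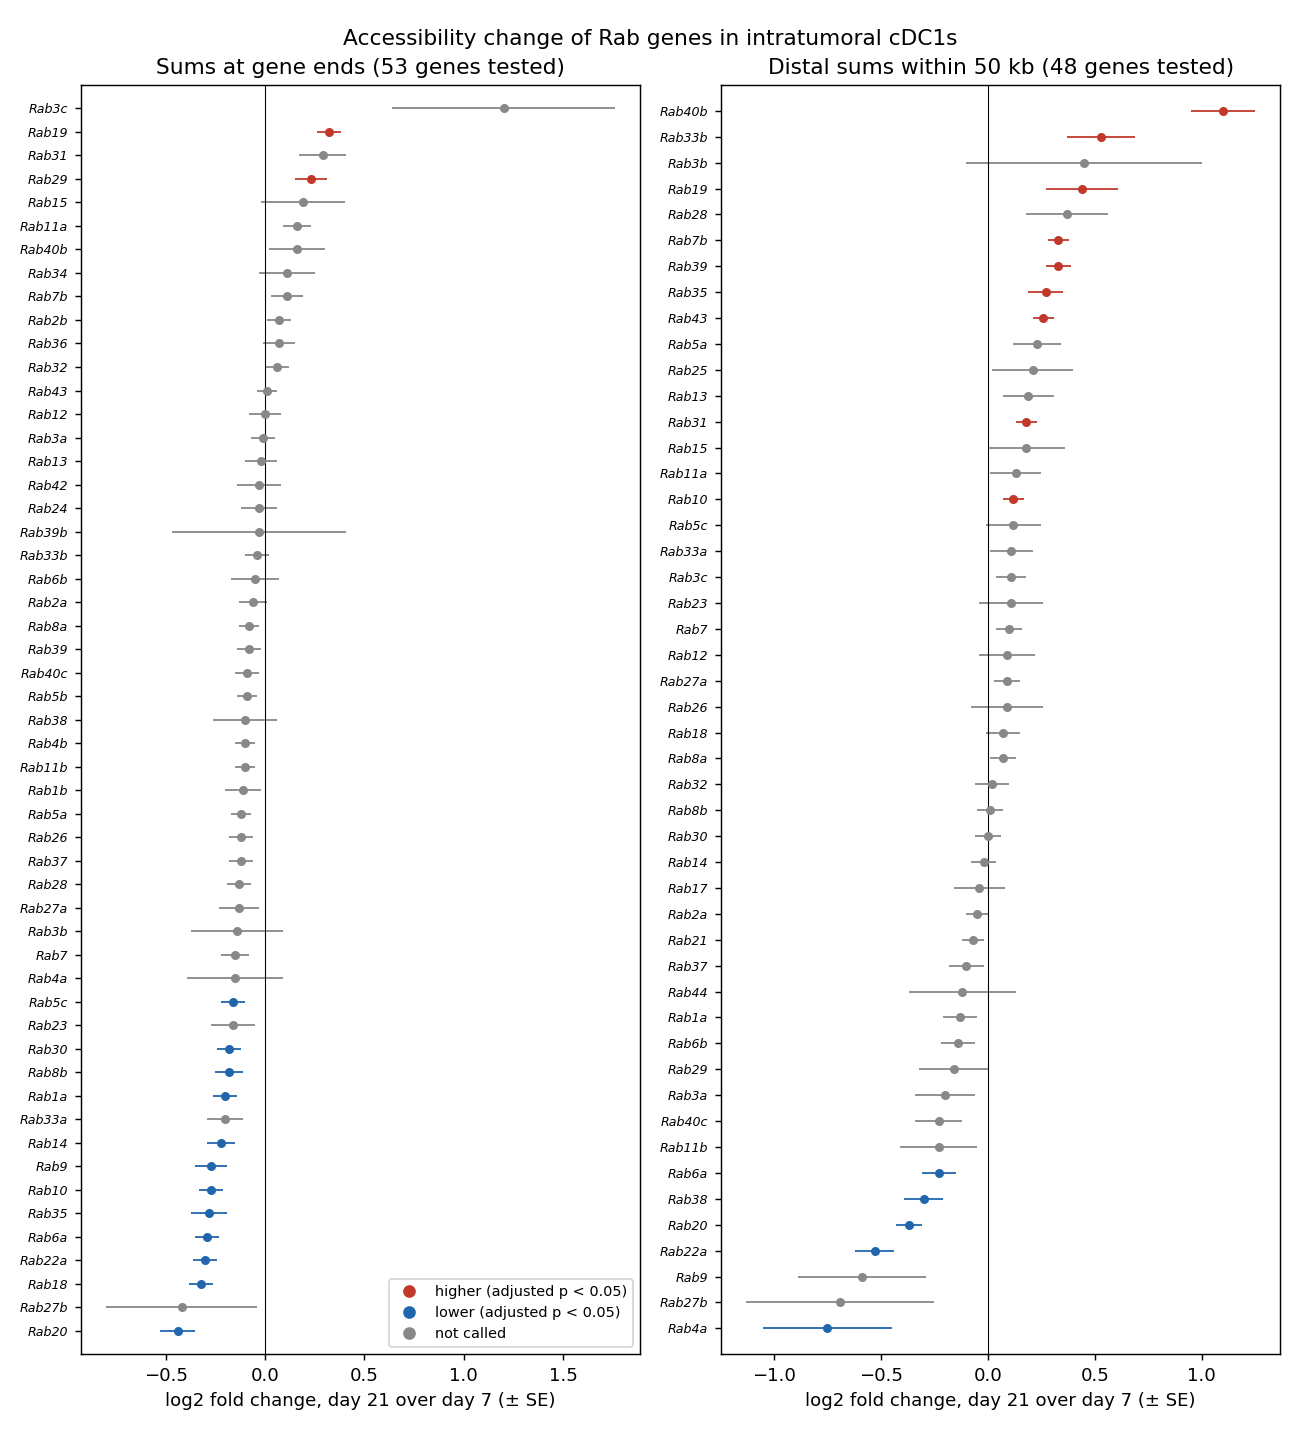
Log2 fold change of accessibility, day 21 over day 7, with its standard error, for the 53 Rab genes tested at gene ends and the 48 tested in distal sums, sorted by value. Red points passed the test as higher (2 at ends, 9 distal) and blue points as lower (12 at ends, 5 distal), and most called changes are smaller than 0.50 on the log2 scale.

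Among the early endosome Rabs, Rab22a, Rab20 and Rab5c fell at gene ends, of 6 tested, or 50.0% against 24.6% over all genes tested. The shares of this and the other groups below were not tested against those of all genes. Rab22a sorts MHC class I molecules into the recycling route and is required for cross-presentation in mouse dendritic cells. At its end it had 59.3, 66.2, 62.0 and 62.8 CPM in day 21 libraries, against 72.4, 89.9, 73.6 and 74.1 CPM in day 7 libraries. Each day 21 library was below each day 7 library, and the log2 fold change was -0.30 ± 0.06 (SE, n = 4 each, edgeR adjusted p = 1.41e-04). Its distal sum fell more, with 29.2, 24.9, 21.5 and 26.6 CPM at day 21 and 41.9, 35.0, 35.8 and 34.7 CPM at day 7. The groups did not overlap there either (log2 fold change -0.53 ± 0.09, edgeR adjusted p = 1.48e-06).

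The distal loss at Rab22a was mainly in a region 20.5 kb inside the gene, chr2:173680105-173680584, which is in the gene body. It had 6.49, 3.62, 4.85 and 5.75 CPM at day 21, against 12.7, 11.6, 14.2 and 10.3 CPM at day 7 (log2 fold change -1.23 ± 0.16, edgeR adjusted p = 6.36e-09). A weaker region 5.89 kb inside the gene also fell (-2.08 ± 0.47, edgeR adjusted p = 7.70e-04), at mean levels under 2 CPM. No region of Rab22a rose.

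Rab20, known from macropinosomes and from the maturation of phagosomes in macrophages, fell at its ends, with 26.7, 20.2, 20.1 and 23.3 CPM at day 21 and 28.6, 29.8, 33.6 and 29.9 CPM at day 7. The groups did not overlap (log2 fold change -0.44 ± 0.09, edgeR adjusted p = 1.15e-04). The loss was at the other end of the gene, chr8:11451989-11453181 (-0.55 ± 0.10, edgeR adjusted p = 5.06e-05). None of the 3 regions at its start passed the test, and the sum at the start end alone had a log2 fold change of -0.20 (edgeR adjusted p = 0.298).

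The distal sum of Rab20 had 75.1, 63.5, 70.9 and 70.9 CPM at day 21, against 101, 86.0, 91.6 and 83.3 CPM at day 7. All day 21 values were lower than all day 7 values (log2 fold change -0.37 ± 0.06, edgeR adjusted p = 1.71e-06). Its strongest region, chr8:11463412-11464657, is 14.6 kb inside the gene and fell by 0.37 on the log2 scale, and a second region in the gene fell by 0.81.

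Rab5c, one of the Rab5 copies that direct fusion of early endosomes, was the weakest call at gene ends (log2 fold change -0.16, edgeR adjusted p = 0.0493), and it lost the call in 15 of 21 alternatives. These included leaving out day 21 replicate 1, 2 or 4 or day 7 replicate 1, 2 or 3 (edgeR adjusted p of 0.0669 to 0.179). Rab5a at its end had 107, 106, 105 and 100 CPM at day 21, against 119, 111, 111 and 112 CPM at day 7. The groups did not overlap, and the test did not pass (log2 fold change -0.12 ± 0.05, edgeR adjusted p = 0.0786). The distal sum of Rab5a lay the other way, with 19.0, 18.9, 16.3 and 17.8 CPM at day 21 and 14.0, 15.1, 16.2 and 15.8 CPM at day 7. Those groups did not overlap either, and that test did not pass (0.23 ± 0.11, edgeR adjusted p = 0.089). The region of Rab5a with the smallest p, chr17:53488546-53489107 in the gene body, did not pass either (0.26 ± 0.11, edgeR adjusted p = 0.0948). Rab5b, at a region shared with the melanocyte gene Pmel, had a log2 fold change of -0.09.

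Rab31, a relative of Rab22a that shuttles between the Golgi and endosomes, did not pass at its end (0.29 ± 0.12, edgeR adjusted p = 0.0575). It passed in 5 of 21 alternatives, among them leaving out day 21 replicate 1 (0.0237) or day 7 replicate 3 (0.0318) and a 2000 bp window (0.47, edgeR adjusted p = 3.18e-06). Its distal sum rose, with 121, 114, 121 and 116 CPM at day 21 and 105, 105, 111 and 94.9 CPM at day 7. The lowest day 21 library was above the highest day 7 library (log2 fold change 0.18 ± 0.05, edgeR adjusted p = 0.00674), although without day 7 replicate 4 the adjusted p was 0.0778. Over regions within 20 kb alone the value was 0.45 (edgeR adjusted p = 7.47e-07). All 4 of its called regions rose, and the one with the smallest p, chr17:65770808-65771583, lies 1.56 kb inside the start (0.56 ± 0.09, edgeR adjusted p = 5.78e-06).

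Rab21, which traffics integrins through early endosomes, had no region in its end windows, because the annotated start used for the windows lies 2.00 kb before the centre of the region over its RefSeq promoter. That region, chr10:115314736-115316107, holds the printed promoter and was counted as distal. It had 41.7, 40.0, 44.7 and 42.3 CPM at day 21, against 52.3, 51.1, 54.6 and 56.2 CPM at day 7, with no overlap (log2 fold change -0.35 ± 0.07, edgeR adjusted p = 1.30e-04). Another region 5.07 kb inside the gene rose (0.30 ± 0.09, edgeR adjusted p = 0.0121), and the distal sum of Rab21 did not pass the test (-0.07).

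**Figure D2:**
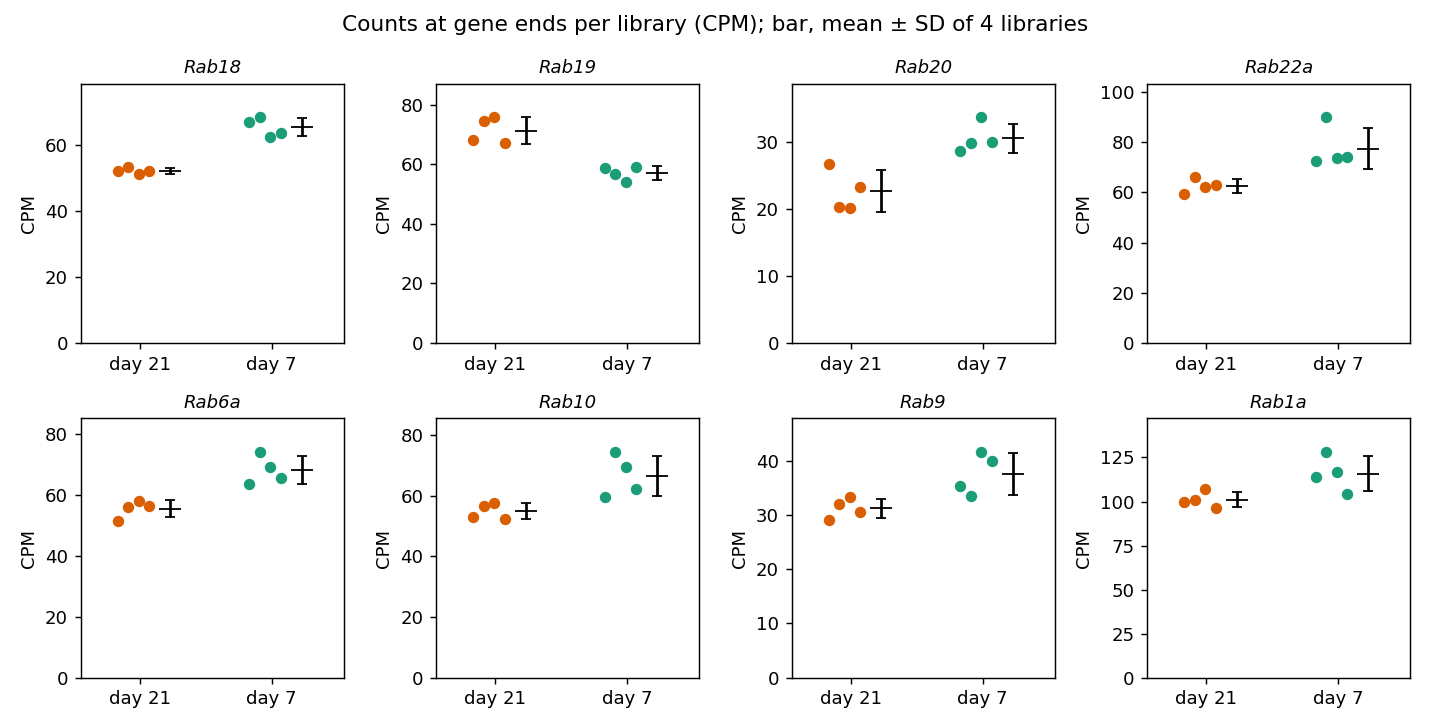
Gene-end sums in CPM of the 8 Rab genes called at ends with the smallest p, with day 21 libraries on the left and day 7 libraries on the right of each panel. Points are single libraries and the bar is the mean ± SD of 4 libraries. Rab19 is higher at day 21 and the other 7 are lower, and of the 8 the groups overlap at Rab1a. The genes were chosen by p in these same libraries, which favours groups that do not overlap.

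The recycling and surface-delivery Rabs included Rab10, Rab14, Rab35 and Rab8b, which fell at ends, of 12 tested, and none of the 12 rose. These falls are 33.3% of the group, where 24.6% of all genes tested fell and 6.71% rose. Rab10 carries cargo to the cell surface, including Toll-like receptor 4 in mouse macrophages. At its end it had 52.8, 56.6, 57.6 and 52.3 CPM at day 21, against 59.7, 74.3, 69.3 and 62.2 CPM at day 7 (log2 fold change -0.27 ± 0.06, edgeR adjusted p = 8.67e-04). Every day 21 library was below every day 7 library.

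The distal sum of Rab10 moved the other way, with 183, 182, 187 and 176 CPM at day 21 and 165, 171, 165 and 167 CPM at day 7. The groups did not overlap (log2 fold change 0.12 ± 0.05, edgeR adjusted p = 0.0456), but the call was lost in 9 of 18 alternatives, among them leaving out day 21 replicate 1, 2 or 3 or day 7 replicate 1, 3 or 4 (0.0744 to 0.108). The gain came mainly from chr12:3236759-3237709, 10.2 kb beyond the gene's far end and inside the long noncoding RNA gene Rab10os. It had 30.7, 33.0, 33.5 and 32.5 CPM at day 21, against 20.4, 20.7, 18.1 and 21.9 CPM at day 7. That is a wide separation of the groups (0.67 ± 0.09, edgeR adjusted p = 1.46e-08).

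Rab35, which acts in fast endocytic recycling and on phagosomes, also had opposed calls, and in neither gene did both calls hold in all alternatives. Its end had 19.0, 18.8, 20.7 and 18.8 CPM at day 21, against 22.5, 21.4, 23.5 and 25.9 CPM at day 7 (log2 fold change -0.28 ± 0.09, edgeR adjusted p = 0.0153). Its distal sum had 32.2, 41.3, 43.6 and 40.0 CPM at day 21, against 31.7, 34.0, 32.2 and 32.5 CPM at day 7. The ends did not overlap between groups, and in the distal sums 1 day 21 library lay within the day 7 range (0.27 ± 0.08, edgeR adjusted p = 0.00628). Without day 21 replicate 3 the distal adjusted p was 0.0501, and the end lost its call without day 21 replicate 4 (0.0552) or day 7 replicate 4 (0.102). With normalisation that varied with the mean count, the end of Rab35 (-0.19, edgeR adjusted p = 0.109) and the distal sum of Rab10 (0.04, 0.533) were not called. With counts thinned to the smallest library they were not called either (-0.23, 0.0791, and 0.12, 0.0692). Its distal region with the smallest p, chr5:115635486-115635933, lies 3.81 kb inside the gene (0.33 ± 0.11, edgeR adjusted p = 0.0173) and did not pass without day 21 replicate 2 or 3 or day 7 replicate 1 or 3 (0.0584 to 0.0994).

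Rab14, which links recycling endosomes, the Golgi and phagosomes, had 42.1, 43.4, 49.0 and 40.8 CPM at day 21, against 43.9, 57.2, 52.3 and 50.7 CPM at day 7. The ranges overlapped, and the fall (-0.22, edgeR adjusted p = 0.0150) lost its call without day 21 replicate 4 (0.0829) or day 7 replicate 2 (0.0883). Rab8b fell by 0.18 at its end (edgeR adjusted p = 0.0247), a call lost without day 21 replicate 1, 2 or 4 or day 7 replicate 3 or 4 (0.0503 to 0.0728).

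Rab11a, the main Rab of recycling endosomes that hold MHC class I, had 55.6, 55.3, 58.5 and 51.5 CPM at its ends at day 21, against 48.7, 53.4, 47.9 and 48.0 CPM at day 7. The groups overlapped, and the test did not pass (log2 fold change 0.16 ± 0.07, edgeR adjusted p = 0.0552). Without day 7 replicate 2, the high library, the adjusted p was 0.0290, and without day 21 replicate 4 it was 0.0370. Rab8a, which delivers vesicles to the plasma membrane, had 117, 122, 124 and 112 CPM at its end at day 21 and 119, 135, 131 and 120 CPM at day 7, overlapping and not called. Rab4a, of fast recycling, fell in its distal sum (-0.75 ± 0.30, edgeR adjusted p = 0.0461) at 1.21 to 1.76 CPM at day 21 and 2.18 to 3.17 CPM at day 7. That call was lost in 8 of 17 alternatives, among them leaving out day 21 replicate 2, 3 or 4 or day 7 replicate 1 or 3 (0.0615 to 0.145), and with regions within 100 kb the value was -0.32 (0.170).

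In the endoplasmic reticulum and Golgi group, Rab1a, Rab6a, Rab18 and Rab30 fell at gene ends and Rab19 rose, of 12 tested. That is 33.3% falling and 8.33% rising, against 24.6% and 6.71% over all genes tested. Rab18, known from lipid droplets and the endoplasmic reticulum, had the smallest p among Rab gene ends, with 52.2, 53.4, 51.2 and 52.1 CPM at day 21 and 67.1, 68.4, 62.5 and 63.8 CPM at day 7. The 2 groups were well apart (log2 fold change -0.32 ± 0.06, edgeR adjusted p = 4.06e-05). Rab6a, which directs retrograde transport at the Golgi, had 51.4, 55.9, 58.0 and 56.2 CPM at day 21, against 63.6, 73.9, 69.2 and 65.4 CPM at day 7. It too had no overlap (-0.29 ± 0.06, edgeR adjusted p = 2.35e-04), but the region is shared with the start of Mrpl48, a mitochondrial ribosome gene. The distal sum of Rab6a also fell (-0.23 ± 0.08, edgeR adjusted p = 0.0187), with the call lost without day 21 replicate 2 (0.0834) or 4 (0.0835), or without day 7 replicate 2 (0.106) or 4 (0.0529).

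Rab1a, which moves vesicles from the endoplasmic reticulum to the Golgi, had 100, 101, 107 and 96.3 CPM at day 21, against 114, 128, 117 and 104 CPM at day 7. The ranges overlapped by 1 library on each side, and the fall was small (-0.20 ± 0.06, edgeR adjusted p = 0.00563). Rab30, a Golgi Rab, fell by 0.18 at its end (edgeR adjusted p = 0.0153).

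Rab19, a little-studied Rab placed at the Golgi, had 68.0, 74.5, 75.7 and 67.0 CPM at its ends at day 21, against 58.6, 56.8, 54.0 and 58.9 CPM at day 7, with no overlap (0.32 ± 0.06, edgeR adjusted p = 5.48e-05). The rise was in a single region 1.04 kb before the annotated start, chr6:39379194-39380152 (0.38 ± 0.07, edgeR adjusted p = 2.88e-05). The region just inside the start had a log2 fold change of -0.01, and with a 500 bp window, or with regions lying at least 50% inside the window, the end value of Rab19 was -0.01 (edgeR adjusted p = 0.957).

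Rab43, which mouse cDC1s need for cross-presentation of cell-associated antigen, did not pass at its ends, with 135, 146, 158 and 139 CPM at day 21 and 139, 144, 144 and 148 CPM at day 7. Its distal sum rose, with 118, 132, 136 and 118 CPM at day 21 and 106, 99.3, 106 and 107 CPM at day 7. There the groups did not overlap (log2 fold change 0.26 ± 0.05, edgeR adjusted p = 8.35e-05). Of its 8 distal regions, 4 rose and none fell, all inside the gene. The one with the smallest p, chr6:87807008-87807299, lies 5.01 kb inside the start (0.63 ± 0.11, edgeR adjusted p = 1.55e-05). Rab33b, which binds an autophagy protein complex, rose in its distal sum (0.53 ± 0.16, edgeR adjusted p = 0.00789) with its end at -0.04.

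**Figure D3:**
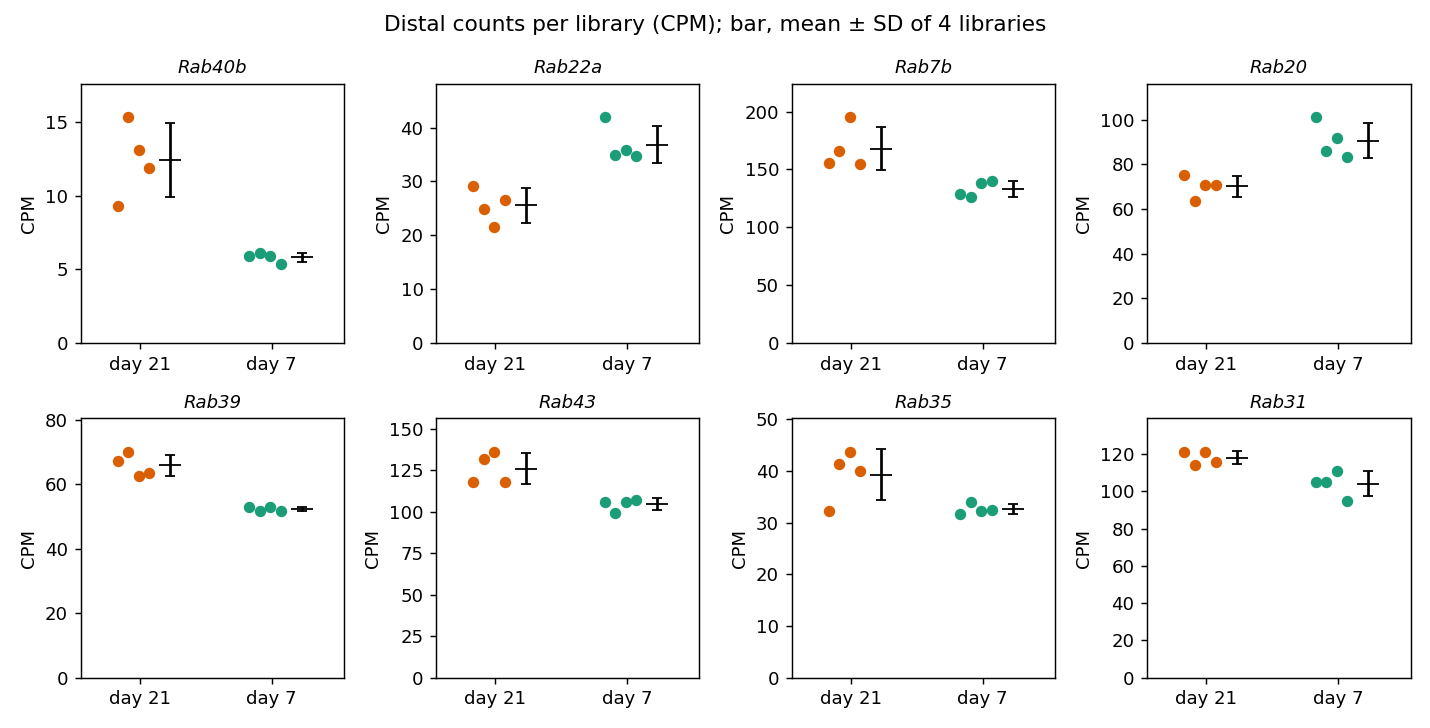
Distal sums in CPM of the 8 Rab genes called with the smallest p, with day 21 libraries on the left and day 7 libraries on the right of each panel. Points are single libraries and the bar is the mean ± SD of 4 libraries. Rab22a and Rab20 are lower at day 21 and the other 6 are higher, and of the 8 the groups overlap at Rab35. The genes were chosen by p in these same libraries, which favours groups that do not overlap.

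In the late endosome and lysosome group, Rab9 fell and Rab29 rose at gene ends, of 9 tested, and Rab7b and Rab39 rose in distal sums, of 5 tested. At ends that is 11.1% each way, against 24.6% falling and 6.71% rising over all genes tested. In distal sums it is 40.0% rising, against 18.3%. Rab9, which returns receptors from late endosomes to the Golgi, had 29.1, 32.0, 33.3 and 30.5 CPM at day 21, against 35.3, 33.5, 41.6 and 40.0 CPM at day 7. The highest day 21 library was just below the lowest day 7 library (-0.27 ± 0.08, edgeR adjusted p = 0.00501). The call of Rab9 was lost with counts thinned to the smallest library (-0.21, edgeR adjusted p = 0.0525). It was also lost with normalisation that varied with the mean count (-0.17, 0.0882). Rab29, a partner of the kinase Lrrk2, rose by a log2 fold change of 0.23 (edgeR adjusted p = 0.0153), a call lost without day 21 replicate 3 (0.107), day 7 replicate 1 (0.0533) or day 7 replicate 2 (0.0816).

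Rab7b, which moves cargo from late endosomes to the Golgi, had the most distal regions that rose. Its distal sum had 156, 166, 195 and 155 CPM at day 21, against 129, 126, 138 and 140 CPM at day 7. The groups did not overlap (log2 fold change 0.33 ± 0.05, edgeR adjusted p = 1.68e-06). Of 14 distal regions tested, 5 rose, none fell and 13 had a log2 fold change above 0. The region with the smallest p, chr1:131690419-131690883, is in the gene body (0.54 ± 0.10, edgeR adjusted p = 5.13e-05). At its ends, Rab7b had 39.1, 33.2, 41.3 and 31.6 CPM at day 21 and 31.7, 35.5, 33.8 and 33.0 CPM at day 7, which overlapped.

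Rab39, known from phagosomes, had 67.2, 69.9, 62.6 and 63.5 CPM in its distal sum at day 21, against 52.9, 51.7, 52.8 and 51.7 CPM at day 7. The groups were clearly separate (0.33 ± 0.06, edgeR adjusted p = 2.92e-05), and its end did not pass (-0.08). Both of its called regions rose, chr9:53700450-53701033 in the gene body (0.37 ± 0.08, edgeR adjusted p = 4.18e-04) and one 11.4 kb before the start (0.92 ± 0.21, edgeR adjusted p = 5.89e-04).

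Rab7, the central Rab of late endosomes and lysosomes, did not pass in either sum. It had 32.6, 35.3, 35.9 and 32.3 CPM at its ends at day 21, against 37.9, 36.9, 40.4 and 35.5 CPM at day 7, with ranges that overlapped (-0.15 ± 0.07, edgeR adjusted p = 0.126). In its distal sum it had 90.1, 104, 113 and 95.7 CPM at day 21 and 93.4, 90.7, 94.8 and 95.8 CPM at day 7, which overlapped, and without day 21 replicate 1 the distal adjusted p was 0.0433. A weak region in the gene body, chr6:88027313-88027509, rose (1.35 ± 0.43, edgeR adjusted p = 0.0185), a call lost without day 21 replicate 3 (0.137) or day 7 replicate 1 (0.0941). Rab34, which acts in phagosome maturation, had 8.40, 7.97, 8.87 and 9.24 CPM at its ends at day 21 and 8.16, 8.31, 7.19 and 8.35 CPM at day 7, also overlapping (0.11 ± 0.14, edgeR adjusted p = 0.592).

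None of the 9 Rab genes of secretory granules and lysosome-related organelles passed at gene ends, where 2 had an unadjusted p under 0.05, and Rab38 fell in its distal sum, of 10 tested. Over all genes tested, 24.6% fell and 6.71% rose at ends. In distal sums 11.4% of all genes tested fell, against 10.0% of this group. Rab27a, which docks secretory granules and brings NADPH oxidase to phagosomes in mouse dendritic cells, had 15.5, 15.6, 17.3 and 17.4 CPM at its ends at day 21 and 16.2, 17.5, 20.1 and 18.2 CPM at day 7, overlapping. Inside the gene, regions moved both ways. The region chr9:73080002-73080358 had 3.81, 1.33, 1.42 and 0.928 CPM at day 21, against 5.0, 5.86, 6.18 and 3.43 CPM at day 7 (-1.51 ± 0.27, edgeR adjusted p = 2.00e-05). Day 21 replicate 1 lay in the day 7 range and the other day 21 libraries below it. A region at chr9:73086580-73087468 rose (0.39 ± 0.09, edgeR adjusted p = 0.00134), and the distal sum did not pass (0.09).

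Rab32, which acts at mitochondria and lysosome-related organelles, had 67.5, 71.7, 74.2 and 65.3 CPM at its ends at day 21 and 67.0, 67.0, 65.6 and 67.5 CPM at day 7, overlapping. A region 11.4 kb inside the gene, chr10:10546583-10547039, had 2.40, 1.51, 1.06 and 1.57 CPM at day 21, against 4.50, 4.26, 5.33 and 5.17 CPM at day 7. It was lower in all 4 day 21 libraries (-1.58 ± 0.24, edgeR adjusted p = 9.67e-07), while chr10:10555814-10556205, 2.20 kb inside the start, rose (0.41 ± 0.11, edgeR adjusted p = 0.00501). Rab38, the partner of Rab32 in melanosome formation, had 31.7, 24.3, 21.7 and 29.4 CPM in its distal sum at day 21 and 30.8, 33.8, 34.2 and 33.2 CPM at day 7. The ranges overlapped through day 21 replicate 1 (-0.30 ± 0.09, edgeR adjusted p = 0.00701), and the call did not hold for regions within 20 kb (0.0747) or for regions with a mean of at least 20 counts (0.183). Its region with the smallest p, chr7:88444295-88444632, was at 0.143 to 1.13 CPM at day 21 and 1.67 to 2.02 CPM at day 7 (-1.92 ± 0.45, edgeR adjusted p = 0.00106).

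Markers of melanoma and of T and NK cells moved both ways. Tyrp1 fell at its ends (-2.23 ± 0.53, edgeR adjusted p = 8.08e-04), as did Sox10 (-1.30 ± 0.46, edgeR adjusted p = 0.0254) and the T cell regulator Bcl11b (-2.03 ± 0.42, edgeR adjusted p = 1.75e-04). The NK receptor genes Klrb1c (0.51 ± 0.11, edgeR adjusted p = 1.94e-04) and Klrk1 (0.34 ± 0.11, edgeR adjusted p = 0.0116) rose at their ends, as did Mitf, and of 8 B cell genes Fcrla rose (0.60 ± 0.09, edgeR adjusted p = 1.30e-06) and none fell. The larger distal sum of Klrb1c fell, with means of 82.5 CPM at day 21 and 100 CPM at day 7 (-0.29 ± 0.06, edgeR adjusted p = 7.47e-05). That of Klrk1 did not pass (0.35 ± 0.16, edgeR adjusted p = 0.0931). Day 21 replicate 1 was the highest day 21 library for Tyrp1 (0.706 CPM) and Bcl11b (1.34 CPM), while for Sox10 it was day 21 replicate 2 (0.905 CPM). Of the other T and NK markers that fell at ends, Cd2, Cd28, Eomes, Tcf7 and Prf1 were also highest in day 21 replicate 1. Cd5 was highest in day 21 replicate 3 and Gzmb in day 21 replicate 2, and Klrb1c and Klrk1, which rose, in day 21 replicate 3. Which library was highest was not tested, and the part of other cells in the falls at Rab27a, Rab32 and Rab38 was not tested either.

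Rab40b, which joins a ubiquitin ligase, was in the remaining group and had the largest fold change among the Rab sums called. Its distal sum had 9.31, 15.3, 13.1 and 11.9 CPM at day 21, against 5.91, 6.07, 5.92 and 5.36 CPM at day 7. No libraries overlapped (log2 fold change 1.10 ± 0.15, edgeR adjusted p = 1.08e-08). The rise was mostly in chr11:121363072-121363795, 24.8 kb inside the gene (1.17 ± 0.16, edgeR adjusted p = 1.10e-07). Its start region had a log2 fold change of 0.16 (edgeR adjusted p = 0.460). None of the 5 genes of this group passed at ends, with 1 at an unadjusted p under 0.05, where 24.6% of all genes tested fell and 6.71% rose.

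**Figure D4:**
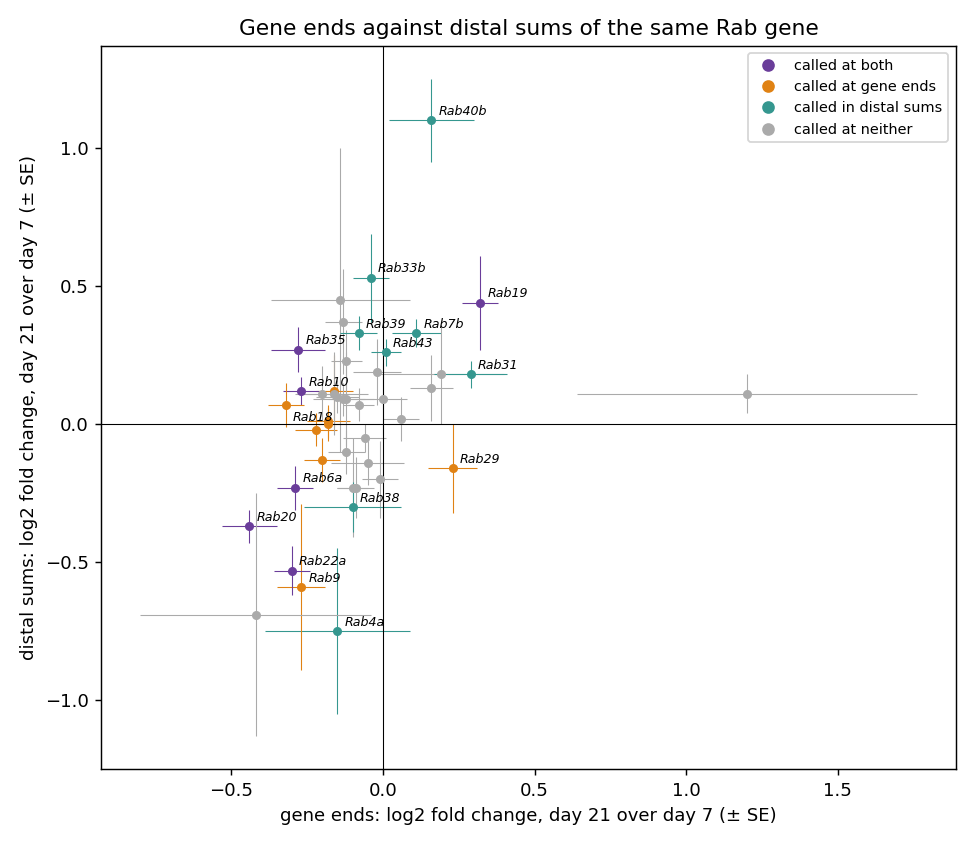
Log2 fold change of the distal sum against that of the gene-end sum for the 44 Rab genes tested in both, with standard errors. Colours show where a gene passed the test. Names are given for genes called in both or with a called change and a value past 0.20 in either sum, except Rab14, which is left unnamed. Rab6a, Rab19, Rab20 and Rab22a were called in the same direction in both, while Rab10 and Rab35 sit lower at ends and higher in distal sums.

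Ends and distal sums were compared within the same gene. Of 22 Rab genes called in either sum, 6 were called in both. Those 6 are 13.6% of the 44 tested in both, where 10.8% of 11031 genes were called in both. Rab6a, Rab20 and Rab22a fell in both, Rab19 rose in both, and Rab10 and Rab35 fell at ends and rose in distal sums. Thus 4 of 6 moved the same way, where 823 of 1191 genes called in both did (69.1%). Among the 44 genes tested in both, 17 (38.6%) had a value below 0 at the ends and above 0 in the distal sum, and 1 (2.27%), Rab29, had the reverse. Over all genes tested in both, these shares were 34.6% and 11.6%. Across these genes, which share libraries and depth and are not independent replicates, Pearson's r was 0.35 and Spearman's rho 0.42. Over 11031 genes tested in both, r was 0.22.

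Single regions were also tested across the whole table. Of 389 regions of Rab genes, 377 were tested, and 34 rose and 31 fell, where 9.5% rose and 9.86% fell over all 121865 regions. Without day 21 replicate 3, or without day 7 replicate 3, 21 rose. Of 83 regions tested at gene ends, 2 rose and 14 fell, or 2.41% and 16.9%, against 6.63% and 16.6% of all 17636 regions at gene ends. Of 294 distal regions, 32 rose and 17 fell, or 10.9% and 5.78%, against 9.98% and 8.41% of all 77478 distal regions within 50 kb of a gene end. At least 1 called region was found at 31 of 57 Rab genes with a tested region, which is 54.4%, against 54.3% of 17023 genes. At 9 Rab genes, or 15.8% against 11.4% of all genes, regions were called both ways, namely Rab2a, Rab8b, Rab10, Rab11a, Rab14, Rab21, Rab27a, Rab32 and Rab35.

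Falls of more than 1 on the log2 scale made up 10 of the 31 Rab regions that fell, in 8 genes, against 3 of the 34 that rose. The falling ones averaged at most 12.2 CPM at day 7. Over all regions called, 38.1% of falls and 16.8% of rises passed the same limit. Among these weak regions were one before Rab11a (chr9:64766674-64767117, -1.68 ± 0.35, edgeR adjusted p = 1.91e-04), one in Rab6b (-1.62 ± 0.31, edgeR adjusted p = 4.94e-05) and one at the far end of Rab42 (-2.08 ± 0.40, edgeR adjusted p = 6.09e-05).

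**Figure D5:**
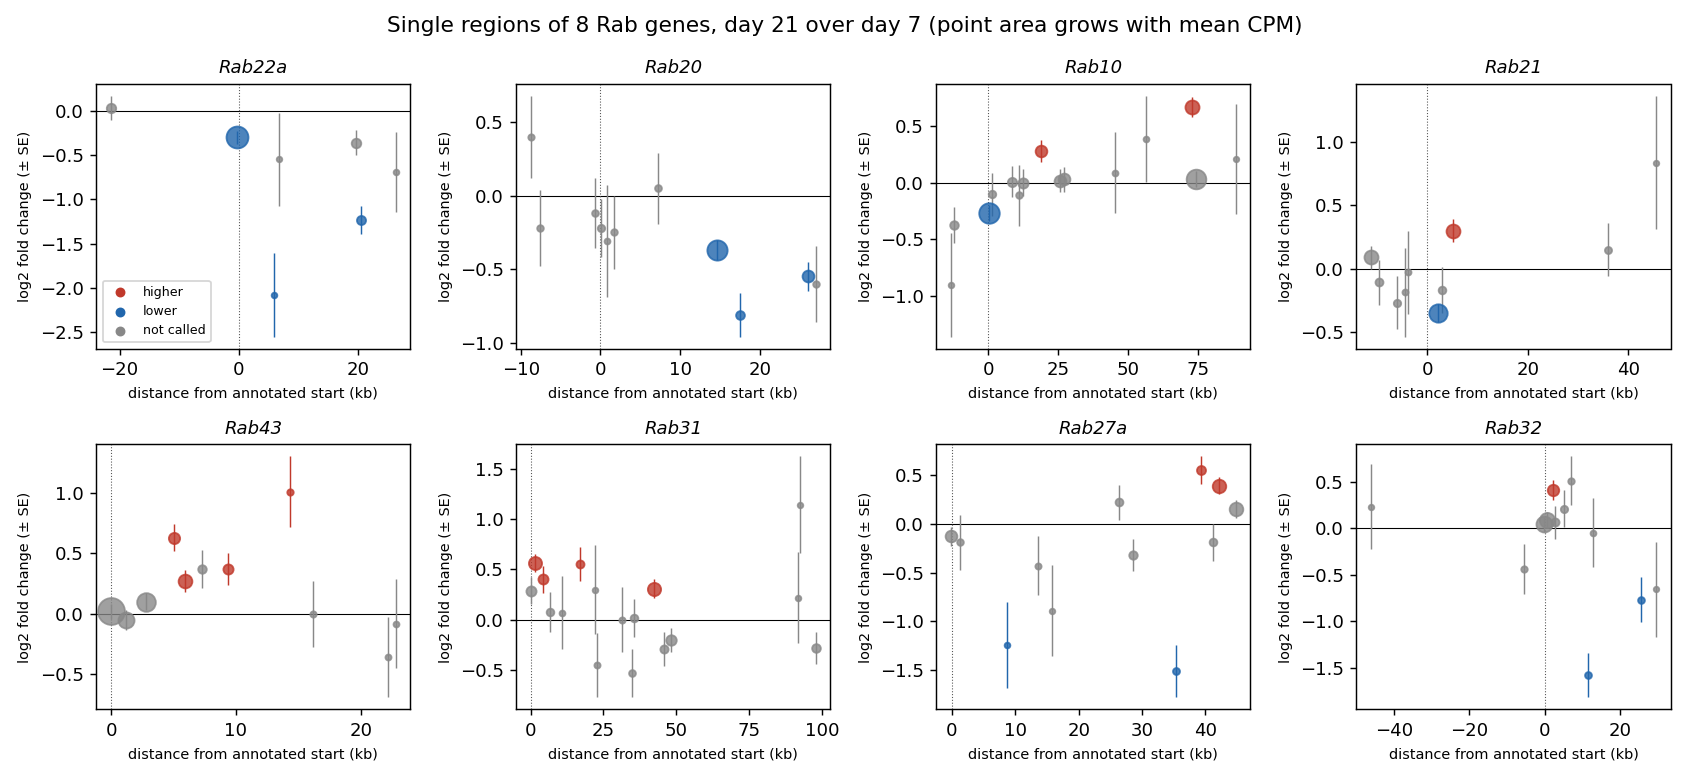
Log2 fold change, day 21 over day 7, with its standard error, of each tested region of 8 Rab genes against its distance from the annotated start in kb. Red points rose, blue points fell and grey points did not pass the test, and the point area grows with mean CPM. At Rab22a and Rab20 all called regions fell, at Rab43 and Rab31 all rose, and at Rab10, Rab21, Rab27a and Rab32 both occur.

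Regions over RefSeq promoters were compared separately, since the annotated end of a gene can lie away from its main start. A region covered the promoter of 44 of the 48 Rab genes with an entry, of which none rose and 10 fell by edgeR's quasi-likelihood test. Those that fell belonged to Rab1a, Rab6a, Rab8b, Rab9, Rab10, Rab14, Rab21, Rab22a, Rab28 and Rab35. Over all 9800 regions on a promoter 4.38% rose and 22.8% fell, and the median log2 fold change was -0.10 for Rab promoters and -0.11 for all of them. A GC box was in 8 of these 10 promoters, a CCAAT box in 5 and a YY1 motif in 2, those of Rab22a and Rab28.

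Levels at gene ends spanned a wide range when set per kb of region covered. Rab8a was the highest, with 123 CPM per kb at day 21 and 130 CPM per kb at day 7, followed by Rab30, Rab40c and Rab3a, all above 100 CPM per kb at both times. Rab3c, Rab39b, Rab44, Rab27b, Rab34 and Rab4a were all under 5 CPM per kb at both times. At the bottom, counts were few: the ends of Rab3c held 0 to 20 counts in any library, and those of Rab8a 1266 to 3126.

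The machinery around the Rabs, given as 4 lists of 140 genes, was read beside them. At gene ends 6 rose and 36 fell of 129 tested, or 4.65% and 27.9%, and in distal sums 33 rose and 18 fell of 121, or 27.3% and 14.9%. Over all genes tested 6.71% rose and 24.6% fell at ends, and 18.3% rose and 11.4% fell in distal sums. Exchange factors had 15 falls (33.3%) and no rise of 45 at ends (18 at an unadjusted p under 0.05), GTPase-activating proteins 11 falls (30.6%) and 3 rises of 36, effectors 8 falls (19.5%) and 3 rises of 41, and prenylation and recycling genes 2 falls and no rise of 7. In distal sums exchange factors had 10 rises (24.4%) and 9 falls (22.0%) of 41, GTPase-activating proteins 11 rises (33.3%) and 4 falls of 33, effectors 11 rises (26.8%) and 4 falls of 41, and prenylation and recycling genes 1 rise and 1 fall of 6.

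Among prenylation and recycling genes, Rabggtb, the beta subunit of the enzyme that prenylates Rabs, fell at its ends (-0.35 ± 0.09, edgeR adjusted p = 0.00120), as did the chaperone Rabif (-0.27 ± 0.08, edgeR adjusted p = 0.00614). Gdi2, a GDP dissociation inhibitor, rose in its distal sum to 142, 142, 153 and 144 CPM at day 21, against 118, 114, 114 and 125 CPM at day 7 (0.30 ± 0.05, edgeR adjusted p = 3.27e-06). The escort protein gene Chml fell in its distal sum (-0.97 ± 0.33, edgeR adjusted p = 0.0196) at 2.30 CPM or less on average.

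Of the exchange factors, Hps1, part of the complex that activates Rab32 and Rab38, had 25.4, 25.3, 24.5 and 22.1 CPM at its ends at day 21, against 32.5, 39.6, 35.4 and 35.6 CPM at day 7. The groups were far apart (-0.56 ± 0.08, edgeR adjusted p = 2.30e-07). Rab3ip, which activates Rab8, fell at its ends (-0.34 ± 0.07, edgeR adjusted p = 7.66e-05). Ric1, of the complex that activates Rab6, fell in its distal sum (-0.33 ± 0.06, edgeR adjusted p = 1.03e-05), and Trappc11, of a complex at the Golgi, fell by 2.07 on the log2 scale at mean levels of 0.867 CPM at day 21 and 3.48 CPM at day 7 (edgeR adjusted p = 1.37e-06).

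Of the GTPase-activating proteins, Rabgap1l (-0.31 ± 0.06, edgeR adjusted p = 3.46e-05) and Tbc1d24 (-0.49 ± 0.10, edgeR adjusted p = 1.46e-04) fell at their ends. Tbc1d30 fell in its distal sum (-0.54 ± 0.06, edgeR adjusted p = 1.72e-11), and Tbc1d14, a negative regulator of autophagy through Rab11 membranes, rose in its own (0.26 ± 0.05, edgeR adjusted p = 3.48e-06).

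Of the effectors, Sytl3, a synaptotagmin-like protein that binds Rab27, rose the most at its ends, with 26.2, 24.2, 25.1 and 19.2 CPM at day 21 and 10.3, 10.0, 12.2 and 13.1 CPM at day 7. All 4 day 21 libraries lay above all day 7 libraries (1.03 ± 0.11, edgeR adjusted p = 1.70e-11). Rab11fip1, an effector of Rab11 on recycling endosomes, rose both at the ends (0.41 ± 0.06, edgeR adjusted p = 4.60e-08) and distally (0.42 ± 0.05, edgeR adjusted p = 2.96e-10). Inpp5b, an inositol phosphatase recruited by Rabs, fell in its distal sum (-0.46 ± 0.06, edgeR adjusted p = 1.16e-09).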

How the data were processed

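The data are 8 ATAC-seq libraries of cDC1s from tumours, 4 from day 21 and 4 from day 7, as 1 table that the authors deposited of whole-number counts, not normalised, for 128057 regions in each library, per the values and the file headers. The submitters' processing notes name builds mm10 and GRCm38 and the tools bedtools, SAMtools, MACS2 2.1.0.20150603, Picard 1.65 and cutadapt 1.9. The aligner, the filters, how regions were merged, whether transposase cut positions were shifted and what was counted per region are not given in the sources used here, nor is whether a region's first coordinate counts from 0 or 1, so coordinates are printed as deposited.

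Gene positions and promoters came from RefSeq (GRCm38.p6). The whole count of each region was summed if any part of it overlapped the 1000 bp on each side of either gene end. Distal sums took the regions whose nearest protein-coding gene end lay within 50 kb. Sums and single regions were tested with edgeR 4.0.16 (R 4.3.3; filterByExpr, TMM factors from the regions, quasi-likelihood test), day 21 over day 7 with no other term, and p-values were adjusted by Benjamini-Hochberg over all genes or regions tested, with a threshold of 0.05. CPM are counts divided by each library's total over tested regions multiplied by its TMM factor (0.978 to 1.01), scaled to 1000000. They are thus relative to the other regions of a library and do not describe absolute accessibility. The deepest library had 27737040 counts and the shallowest 9440223, and the common biological coefficient of variation of the regions was 0.133. The scripts were tested on simulated data, with the coefficient of variation of the regions used for the sums as well. A log2 change of 0.5 was recovered in 37% of changed gene-end sums, 38% of distal sums and 6.06% of single regions. For a change of 1 these shares were 97%, 92.9% and 74.5%. A value that was not called can thus hide a change of 0.5. DESeq2 1.42.0, limma 3.58.1, other windows, filters and scalings, the replicate block and leaving out each library were alternatives.

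Values of all libraries are given for the 8 called genes with the smallest p in each sum and for 16 Rab genes chosen by name from their known roles, and for each the region with the smallest p. Further regions, and the other called Rab genes, were named after their values were seen, as were the comparison over promoters and the log2 limit of 1 for single regions. For pathway genes, the 2 with the smallest p in each list and sum are named. The members and lists were chosen with earlier results of these data known. Genes were placed in groups by their best-known compartment.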

Additional observations from a re-analysis of the deposited data

Results flagged for a closer look

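In 136 groups of 4 libraries of the named genes and regions, 10 held 1 library that stood apart from the other 3 by Dixon's test. Chance flags about 1 in 20 groups, and neighbouring values of 1 gene share libraries.

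Of these, 5 were gene-end sums. Rab5a had 119 CPM in day 7 replicate 1, against 111 to 112 CPM in the other day 7 libraries, and Rab11a had 53.4 CPM in day 7 replicate 2, against 47.9 to 48.7 CPM. Rab22a had 89.9 CPM in day 7 replicate 2, where the other day 7 libraries had 72.4 to 74.1 CPM. Rab34 had 7.19 CPM in day 7 replicate 3 in its sum and in its single region, below 8.16 to 8.35 CPM. Rab35 had 20.7 CPM in day 21 replicate 3, above 18.8 to 19.0 CPM in the other day 21 libraries.

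In distal sums, Rab9 had 0.887 CPM in day 21 replicate 3, below the 1.86 to 2.05 CPM of the other day 21 libraries. Rab22a had 41.9 CPM in day 7 replicate 1, above 34.7 to 35.8 CPM, and Rab43 had 99.3 CPM in day 7 replicate 2, below 106 to 107 CPM. In the region inside Rab27a, day 21 replicate 1 had 3.81 CPM and the other day 21 libraries 0.928 to 1.42 CPM. The falls of Rab22a at its end and in its distal sum, the distal rise of Rab43 and the fall of the Rab27a region kept their calls when any 1 library was left out.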

How the results depend on the processing

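Of 1337 single values recomputed over 74 results, 1223 kept their direction and their side of the threshold, or moved by less than the spread between libraries. Another 85 lost their call, 17 gained one, 10 uncalled values changed sign and 2 called values reversed. The sign changes ran from small ones, as in the distal sum of Rab32 (0.02 to -0.01 with offsets that follow the mean count), to the end of Rab40b (0.16 to -0.08 with a 2000 bp window). Both reversals were the end value of Rab19, which became -0.01 with a 500 bp window and with regions at least 50% inside the window. The number of Rab genes that rose at ends was 1 under each of those, 5 with a 2000 bp window, 7 with offsets that follow the mean count, and 1 to 3 when single libraries were left out. The number that fell at ends was 6 with those offsets and 8 to 15 when single libraries were left out. Over all genes the same offsets gave 1628 rises and 1647 falls at ends, and over the pathway lists 14 and 18. The cause was not tested. In distal sums, 3 Rab genes fell where regions had a mean of at least 20 counts, and 3 to 5 when single libraries were left out. Of pathway genes, 11 fell in distal sums with that filter, 11 with counts thinned to the smallest library, and 10 to 15 when single libraries were left out. Regions of Rab genes that rose numbered 21 to 37 when single libraries were left out. The distal rise of Rab19 was lost without day 21 replicate 1 (edgeR adjusted p = 0.0548), 3 (0.0992) or 4 (0.100), or day 7 replicate 1 (0.0955) or 4 (0.0980). In distal sums of regions within 20 kb, Rab1a (-0.34, edgeR adjusted p = 0.0314) and Rab11a (0.41, 0.0227) gained a call, and with a 2000 bp window Rab7b gained one at its ends (0.28, 5.55e-04). With DESeq2's Wald test 2 Rab genes rose and 11 fell at ends. Replicate numbers are shared between the time points, but same-numbered libraries did not deviate together over regions (correlations 0.00411 to 0.00975), so the numbers were not taken to pair them. With the replicate block 3 Rab genes rose and 15 fell at ends, and 9 rose and 4 fell in distal sums. At gene ends Rab5c (-0.16, called) and Rab11a (0.16, not called) sat at the threshold. No single log2 value marked it, since the end of Rab31 (0.29) was not called and the distal sum of Rab10 (0.12) was. Low ends such as those of Rab3c, with 0 to 20 counts, could show only large changes.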
